A study of Mus musculus with 2 samples.

Results

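Onecut2 and 8 transcription factors of intestinal identity (Cdx1, Cdx2, Hnf4a, Hoxb13, Sox9, Klf5, Gata6 and Sox17) are described here, 9 of the 32285 genes in both count matrices, found by gene symbol. Onecut2 was chosen by its measured difference between the libraries over all epithelial cells, and the other 8 with the levels of these data known, so that difference is a description. Mice were given the carcinogen azoxymethane and dextran sulfate sodium, which injures the colon lining (AOM-DSS), and cells of the resulting colorectal tumours were profiled by 10x Genomics droplet single-cell RNA sequencing. Both groups carried floxed Mtch2 alleles. In the cKO group (Mtch2fl/fl VilCre), Cre under the Villin promoter, active in intestinal epithelium, deletes the gene there, while the WT group (Mtch2fl/fl) has no Cre. Tumours were pooled within each genotype, so each group is 1 library, and the labels used here give no ages, no sexes and no number of animals. No test between genotypes was possible, and the 95% intervals below cover counting error only, not the spread between mice or tumours.

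The intestine keeps its identity through a network of DNA-binding proteins. CDX1 and CDX2, homeodomain proteins of the caudal family, specify hindgut endoderm and remain active in the adult gut, where CDX2 and the nuclear receptor HNF4A bind at many genes of the mature enterocyte. SOX9 and KLF5 are crypt factors, HOXB13 marks the most posterior gut, GATA6 and SOX17 act in endoderm formation, and ONECUT2, a cut-homeodomain protein, is described in mice in liver, pancreas and small intestine.

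Among the 9 genes, Hnf4a was the most alike to Cdx2 in pattern. Promoter sequences were used for 2 of the 9, Cdx2 and Hnf4a. Promoters of the other genes are not described here, so the matches below cover these 2 genes only. Some of the 3 sequences hold short motifs of the same factor families. Each runs 5′ to 3′ from 250 bases before to 50 bases after a RefSeq transcription start, on build GRCm38.p6, and motif letters are in capitals. Hnf4a has an upstream promoter at chr2:163506607-163506906 and a downstream one at chr2:163546905-163547204, both on the plus strand. Cdx2 has its promoter at chr5:147307200-147307499 on the minus strand.
Hnf4a upstream promoter: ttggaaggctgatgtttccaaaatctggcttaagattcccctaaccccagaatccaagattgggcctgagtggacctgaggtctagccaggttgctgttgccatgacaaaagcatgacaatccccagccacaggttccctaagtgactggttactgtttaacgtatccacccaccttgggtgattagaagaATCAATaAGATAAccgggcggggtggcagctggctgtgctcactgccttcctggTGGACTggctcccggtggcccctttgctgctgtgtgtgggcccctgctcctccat
Hnf4a downstream promoter: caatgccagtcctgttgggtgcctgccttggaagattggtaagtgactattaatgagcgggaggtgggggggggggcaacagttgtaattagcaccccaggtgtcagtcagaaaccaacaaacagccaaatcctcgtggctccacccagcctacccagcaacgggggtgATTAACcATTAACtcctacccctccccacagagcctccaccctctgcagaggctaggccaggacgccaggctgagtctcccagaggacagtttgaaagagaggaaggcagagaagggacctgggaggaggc
Cdx2 promoter: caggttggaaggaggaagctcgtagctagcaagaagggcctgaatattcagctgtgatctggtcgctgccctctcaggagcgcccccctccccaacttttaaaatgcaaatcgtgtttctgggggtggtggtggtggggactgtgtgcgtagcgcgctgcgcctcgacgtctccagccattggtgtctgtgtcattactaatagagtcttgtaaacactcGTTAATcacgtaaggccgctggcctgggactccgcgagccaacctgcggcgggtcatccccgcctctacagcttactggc
5 sets of letters were searched on both strands, and no 2 of the matches overlapped. The ONECUT-type letters, ATTGAT, occurred in the upstream Hnf4a promoter on the opposite strand, starting at position -59 from the start site. GATA-type letters, AGATAA, began at -52 in the same promoter. HNF4-type letters, AGTCCA, occurred there too, on the opposite strand at -5. The HNF1-type letters, GTTAAT, occurred on the opposite strand of the downstream Hnf4a promoter at -81 and again at -74, and in the Cdx2 promoter at -30. CDX-type letters, TTTATG, were in none of these 3 windows. Of 32851 RefSeq promoters of this length, 7.54% held the ONECUT-type letters, 11.18% the GATA type, 14.15% the HNF4 type, 7.10% the HNF1 type and 11.85% the CDX type. These matches are letters in a window and say nothing of binding in these tumours.

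On GRCm38 the protein-coding Onecut2 gene (ENSMUSG00000045991) spans chr18:64340020-64400987 on the plus strand. Cdx1 and Gata6 lie on the same chromosome, at chr18:61018862-61036199 and chr18:11052064-11085635. Cdx2 spans chr5:147300805-147307270 (minus), Hnf4a chr2:163506808-163572910 (plus), Sox17 chr1:4490931-4497354 (minus) and Klf5 chr14:99298691-99315036 (plus). Hoxb13 and Sox9 both lie on chromosome 11, at chr11:96194316-96197447 and chr11:112782224-112787760.

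The epithelial cells were taken by marker genes such as Epcam and Krt8, which left 1701 cKO and 2999 WT cells with 67716781 and 91717576 unique molecular identifiers (UMIs), and medians of 34149 and 22354 UMIs per cell. Cuts on marker lists split them into stem-like cells (533 cKO and 1040 WT), mitotic-like (169 and 272), crypt-base-like with Cftr and Slc12a2 (131 and 181), Krt20 surface-like (323 and 468), absorptive colonocyte-like (134 and 276), goblet and Paneth-like (54 and 165) and the other epithelial cells (357 and 597). These classes are ranges of a score, not discrete types: 16.7% of cKO and 16.8% of WT epithelial cells lay within 20% of the stem list's cut. Mtch2, the targeted gene, stood at 23.4 UMIs per 1000000 UMIs (CPM) in cKO and 93.7 CPM in WT epithelial cells, a log2 ratio of -2.002 (-2.08 to -1.93), and was lower in cKO in all 7 classes. In T-like cells, outside the reach of the Villin promoter, Mtch2 was 40.6 CPM in cKO and 48.1 CPM in WT. Epcam, which T cells should lack, was 145 CPM in cKO and 220 CPM in WT T-like cells, against 2290 and 2259 CPM in epithelial cells, so UMIs of an epithelial gene occur at a low level in cells that should lack it.

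Onecut2 was higher in the cKO library across the epithelium as a whole. It stood at 122 CPM (119 to 124) in cKO and 52.7 CPM (51.2 to 54.2) in WT epithelial cells, a 2.31-fold difference and a log2 ratio of 1.21 (1.15 to 1.26). Of the 9377 genes with at least 10 CPM in either library, Onecut2 ranked 17th by ratio. It was the 1 of the 9 genes past 1.5-fold in either direction, where 1.93% of the genes measured were (0.768% higher and 1.16% lower). The other 8 lay between log2 -0.34 and 0.27.

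By class, Onecut2 in cKO was highest in the other epithelial cells at 161 CPM, then stem-like at 140 CPM, mitotic-like at 136 CPM, Krt20 surface-like at 88.4 CPM, absorptive at 73.0 CPM, crypt-base-like at 71.4 CPM and goblet and Paneth-like at 43.7 CPM. In WT the same classes stood at 74.3, 59.7, 61.8, 37.7, 17.5, 32.8 and 29.8 CPM. Stem-like and mitotic-like cells did not differ beyond their intervals in either library, and nor did absorptive and crypt-base-like cells in cKO. The log2 ratio of Onecut2 was above 0 in all 7 classes, lowest at 0.55 (0.19 to 0.91) in goblet and Paneth-like cells and highest at 2.06 (1.77 to 2.36) in absorptive cells. It was also above 0 in 10 of 10 epithelial clusters with at least 50 cells in each library, with log2 ratios of 0.22 to 2.15. The clusters were made without the 9 genes, but they and the classes divide the same cells over which Onecut2 was chosen. Its ratios by class and by cluster are thus a description too, not repeats of the comparison. The highest ratio was in the cluster led by Gm26917, Peak1 and Ccnb1ip1, from 153 cKO and 49 WT UMIs. The intervals of the levels overlapped in the cluster led by Lyz1, Spink4 and Defa24, which had the lowest ratio. They also overlapped in the cluster led by Gm35533, Birc5 and Ube2c, from 14 cKO and 16 WT UMIs. The cluster led by Mptx2, S100g and Smpx had 215 CPM in cKO and 103 CPM in WT.

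**Figure D1:**
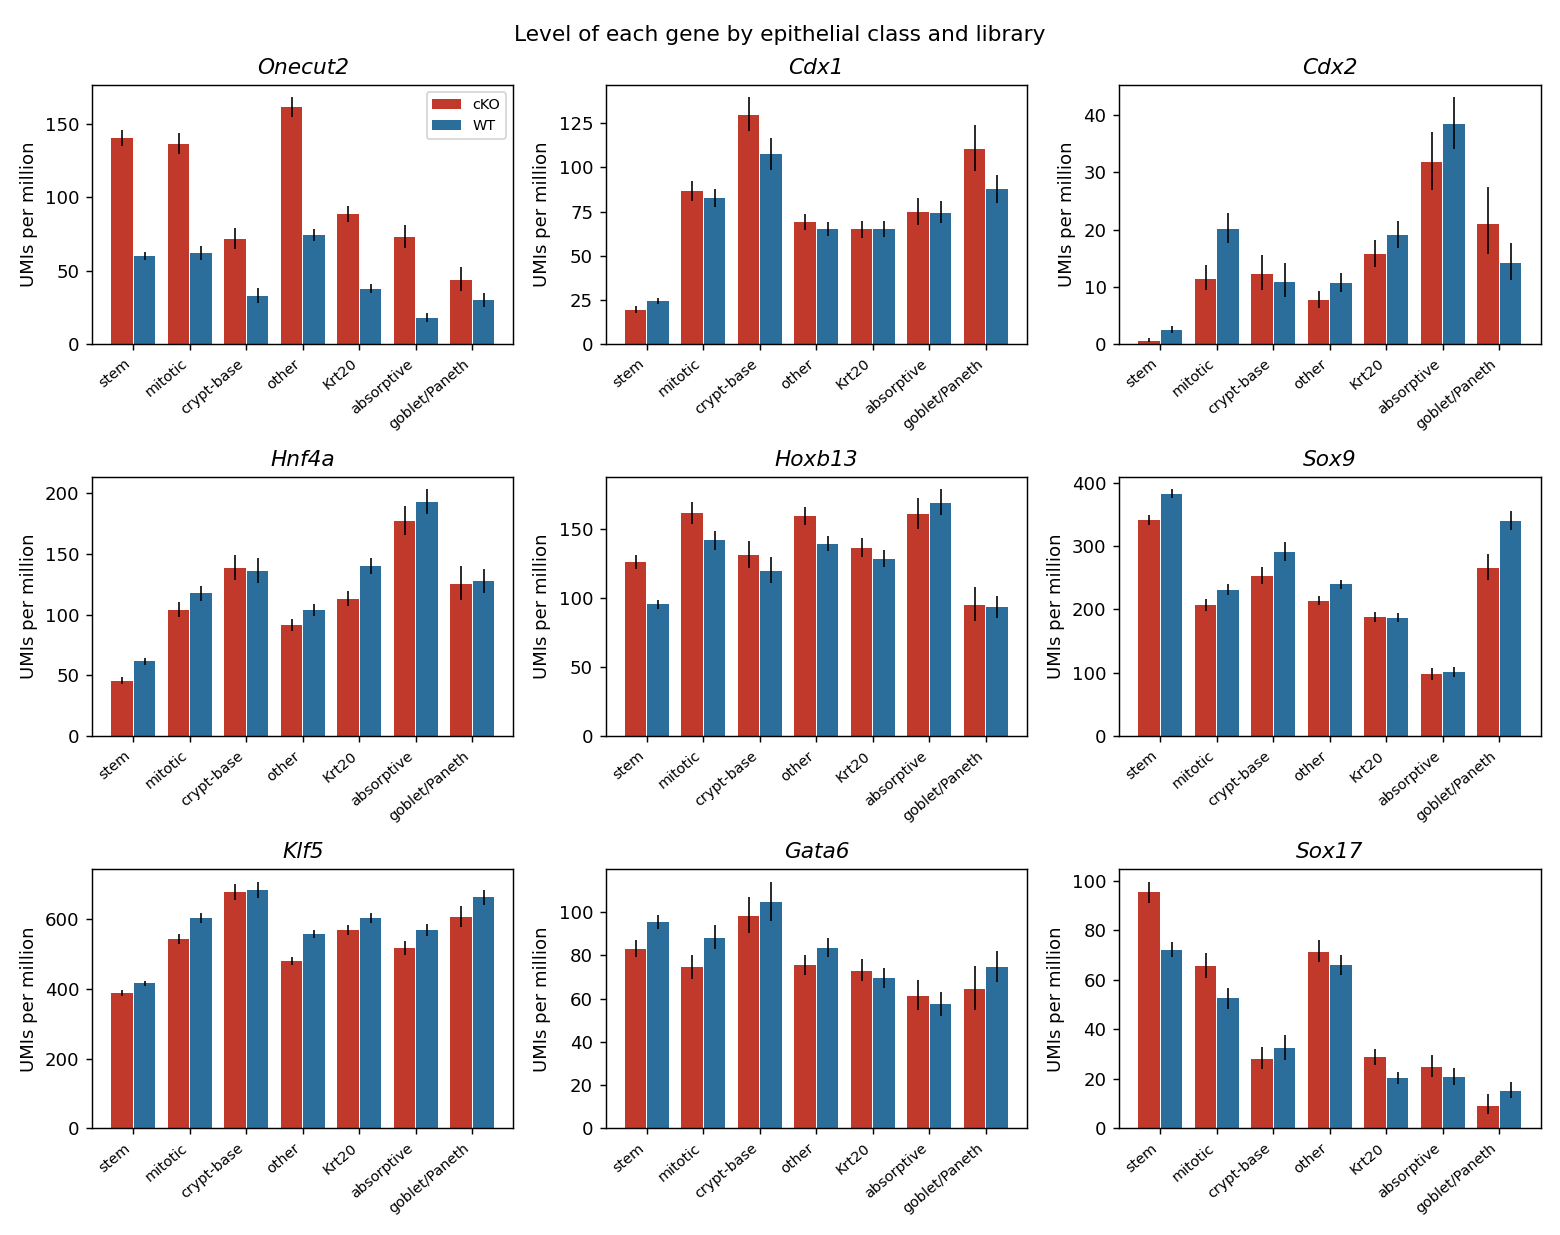
Bars give the level (CPM, UMIs per 1000000) of each of the 9 genes in the 7 epithelial classes, cKO to the left of WT, with 95% Poisson intervals (counting error only). Onecut2 is higher in cKO in all 7 classes, Cdx2 and Hnf4a are lowest in stem-like and highest in absorptive cells, and Sox9 and Sox17 are highest in stem-like cells.

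This difference was not shared by the cells of both sexes. Pooled tumours held cells of male and female mice, and each cell was assigned by Xist, which is expressed from the inactive X chromosome, and by 4 Y-linked genes. Among epithelial cells, 914 cKO and 922 WT cells were assigned male and 248 cKO and 849 WT cells female, and the rest (539 and 1228) were not assigned. Male cells made up 53.7% of cKO and 30.7% of WT epithelial cells, and female cells 14.6% and 28.3%. In male cells Onecut2 was 149 CPM in cKO and 61.7 CPM in WT, a log2 ratio of 1.27 (1.2 to 1.35). In female cells it was 39.4 CPM in cKO and 47.4 CPM in WT, a log2 ratio of -0.27 (-0.45 to -0.091). Female cKO cells thus lay below WT cells of either sex, and male cKO cells far above both. Male over female, the log2 ratio of Onecut2 was 1.92 (1.76 to 2.08) within cKO and 0.38 (0.27 to 0.48) within WT. Mtch2 was low in cKO in both sexes, at 21.3 CPM in cKO and 97.7 CPM in WT male cells and at 31.9 CPM in cKO and 89.1 CPM in WT female cells. Whether the sexes differ could not be tested, since each library holds its sexes once and sex and animal cannot be told apart.

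Within classes, the log2 ratio of Onecut2 in male cells was above 0 in all 7, between 0.59 (0.063 to 1.13) in goblet and Paneth-like cells and 2.58 (2.05 to 3.19) in absorptive cells. In female cells the classes went different ways. Onecut2 was lower in cKO in female mitotic-like cells, at 19.6 CPM in cKO and 61.6 CPM in WT, from 14 and 169 UMIs, and in the other epithelial cells, at 17.7 CPM in cKO and 53.9 CPM in WT, from 19 and 226 UMIs. It was higher in cKO in female absorptive cells, at 33.4 CPM in cKO and 15.1 CPM in WT, from 25 and 33 UMIs. The intervals included no difference in female stem-like cells (69.7 CPM in cKO and 58.7 CPM in WT, log2 0.25, -0.01 to 0.50), crypt-base-like, Krt20 surface-like and goblet and Paneth-like cells. With a stricter assignment of sex, chosen after seeing the data, the log2 ratios over all epithelial cells were 1.27 in male and -0.25 in female cells. Among cells whose sex was not assigned, the ratio was 0.91 (0.81 to 1.02).

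**Figure D2:**
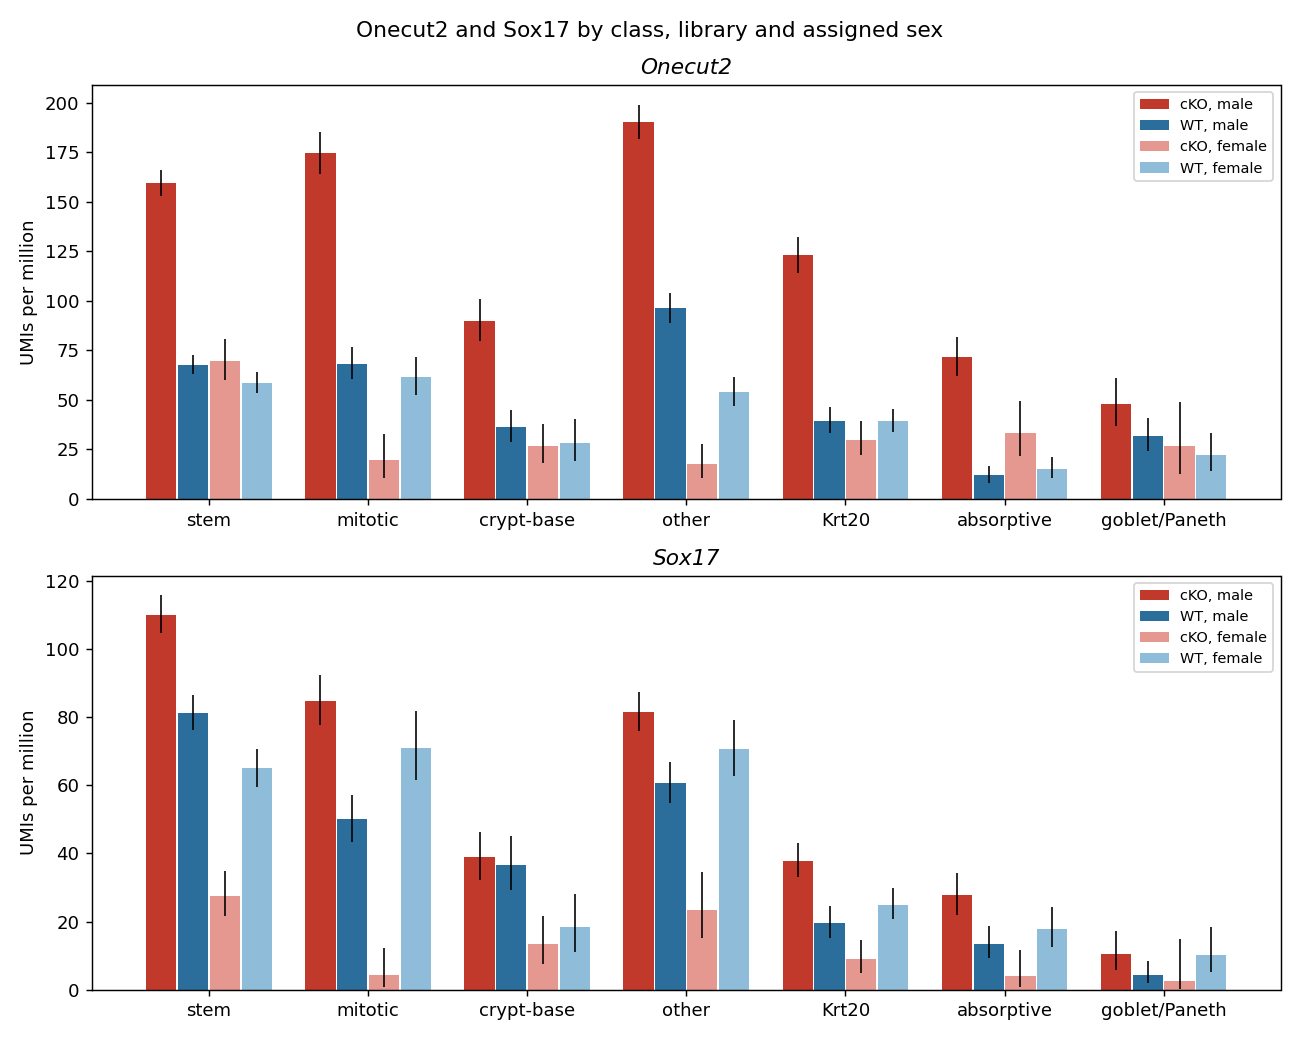
Bars give CPM of Onecut2 (above) and Sox17 (below) in the 7 epithelial classes for cells assigned male (dark) and female (light), cKO to the left of WT within each sex, with 95% Poisson intervals. Male cKO cells have the highest Onecut2 of the 4 groups in all 7 classes, and female cKO cells the lowest Sox17.

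With every cell thinned to 3000 UMIs, 22.9% (20.8 to 25.1) of 1560 cKO and 11.7% (10.5 to 12.9) of 2754 WT epithelial cells held an Onecut2 UMI, and without thinning 55.4% and 35.8% did. The thinned share in T-like cells, which should lack Onecut2, was 2.36% of 339 cKO and 0.816% of 245 WT cells, at median depths of 7577 and 7708 UMIs before thinning. In male cells the thinned share was 29.3% (26.4 to 32.4) in cKO and 12.4% (10.3 to 14.7) in WT. In female cells it was 11.02% (7.32 to 15.7) in cKO and 9.85% (7.88 to 12.1) in WT, with overlapping intervals. At 20000 UMIs per cell, 32.9% of 718 male cKO cells had no Onecut2 UMI and 17.5% had 6 or more, against 60.5% and 5.43% of 645 male WT cells. Of 158 female cKO cells, 74.1% had none and 1.90% had 6 or more, against 63.0% and 3.28% of 427 female WT cells. No order is read from the female share at 3000 UMIs, which overlapped and went against the CPM. The Onecut2 UMIs were spread unevenly in both libraries, with a variance over mean of 4.59 in cKO and 3.68 in WT. Among epithelial cells of 2000 to 10000, 10000 to 20000, 20000 to 40000 and over 40000 UMIs, the log2 ratio of Onecut2 was 1.42, 1.34, 1.16 and 1.18. These values were larger below 20000 UMIs than above, with overlapping intervals.

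**Figure D3:**
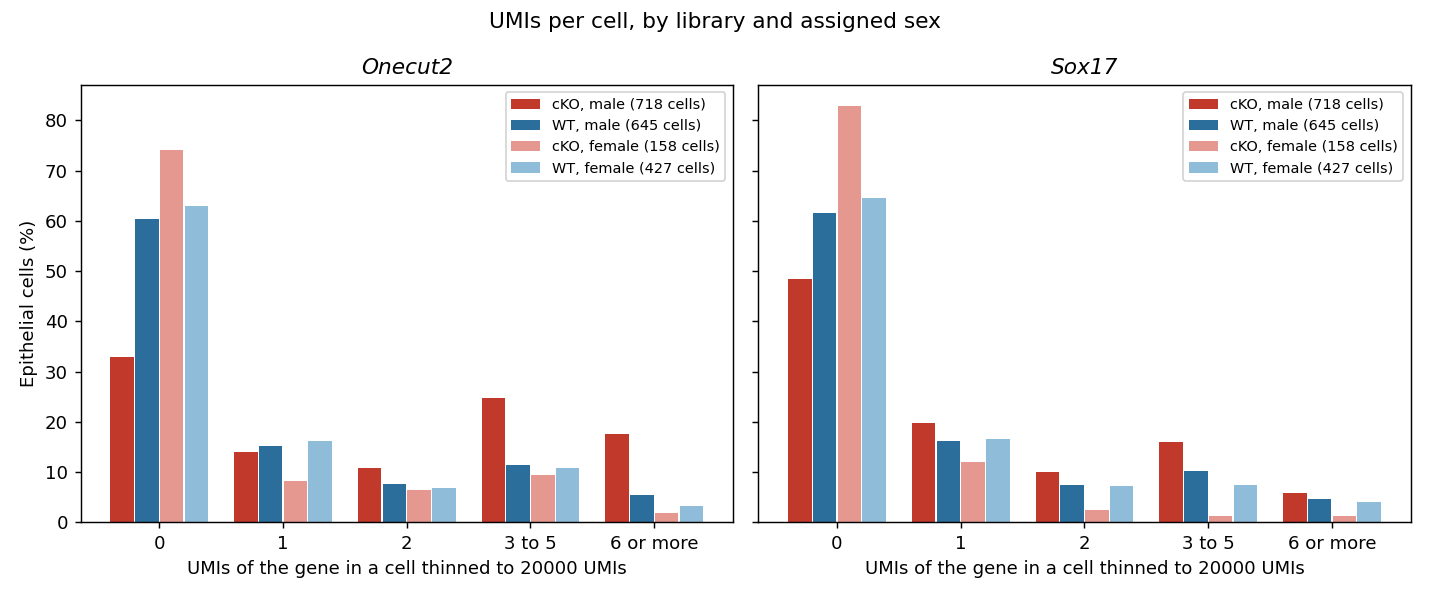
Bars give the percentage of epithelial cells with 0, 1, 2, 3 to 5, or 6 or more UMIs of Onecut2 (left) and Sox17 (right) after each cell was thinned to 20000 UMIs, by library and assigned sex. For Onecut2, 17.5% of male cKO cells have 6 or more UMIs, against 5.43% of male WT cells, 1.90% of female cKO cells and 3.28% of female WT cells.

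Outside the epithelium, Onecut2 was 7.17 CPM in cKO and 1.87 CPM in WT T-like cells, from 21 and 4 UMIs. B-like cells of cKO gave 30.8 CPM from 63 UMIs, of which 43 lay in 2 cells, and 9.78 CPM without those 2. In 54 squamous-like cells of cKO, which made up the class almost alone (WT had 3), Onecut2 was 21.7 CPM, Cdx1 and Cdx2 1.01 CPM each, Hnf4a 7.05 CPM, Klf5 679 CPM and Mtch2 66.0 CPM.

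Sox17, a factor of early endoderm and of arterial endothelium, also took opposite directions in the sexes. Over all epithelial cells it was 61.6 CPM in cKO and 51.0 CPM in WT, a log2 ratio of 0.27 (0.21 to 0.33). In male cells Sox17 was 76.1 CPM in cKO and 53.7 CPM in WT, with a log2 ratio of 0.50 (0.42 to 0.59). In female cells it was 16.03 CPM in cKO and 49.9 CPM in WT, with a log2 ratio of -1.63 (-1.91 to -1.38). It was the 1 of the 9 genes past 1.5-fold in female cells, where 8.14% of genes were in either direction and 4.05% were lower, while in male cells Onecut2 was, where 3.67% of genes were in either direction and 1.27% were higher. In female cells of 7 of 7 classes the Sox17 ratio lay below 0, with intervals that included no difference in crypt-base-like and goblet and Paneth-like cells. Female WT and male WT cells differed little, with a log2 ratio of male over female of 0.11 (-0.0001 to 0.21), against 2.24 (1.997 to 2.51) within cKO. By class Sox17 was highest in stem-like cells, at 95.2 CPM in cKO and 72.1 CPM in WT, and lowest in goblet and Paneth-like cells, at 9.13 CPM in cKO and 15.2 CPM in WT. Endothelial-like cells had 83.2 CPM in cKO and 76.1 CPM in WT, from 33 and 19 UMIs. Of 12 endothelial genes, Sox17 alone reached 10 CPM in epithelial cells of either library, and the other 11 did not. Of those, Pecam1, Cdh5, Vwf, Kdr and Plvap were the markers by which endothelial-like cells were kept out of the epithelial cells. Their low level is thus partly set by that choice of cells.

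**Figure D4:**
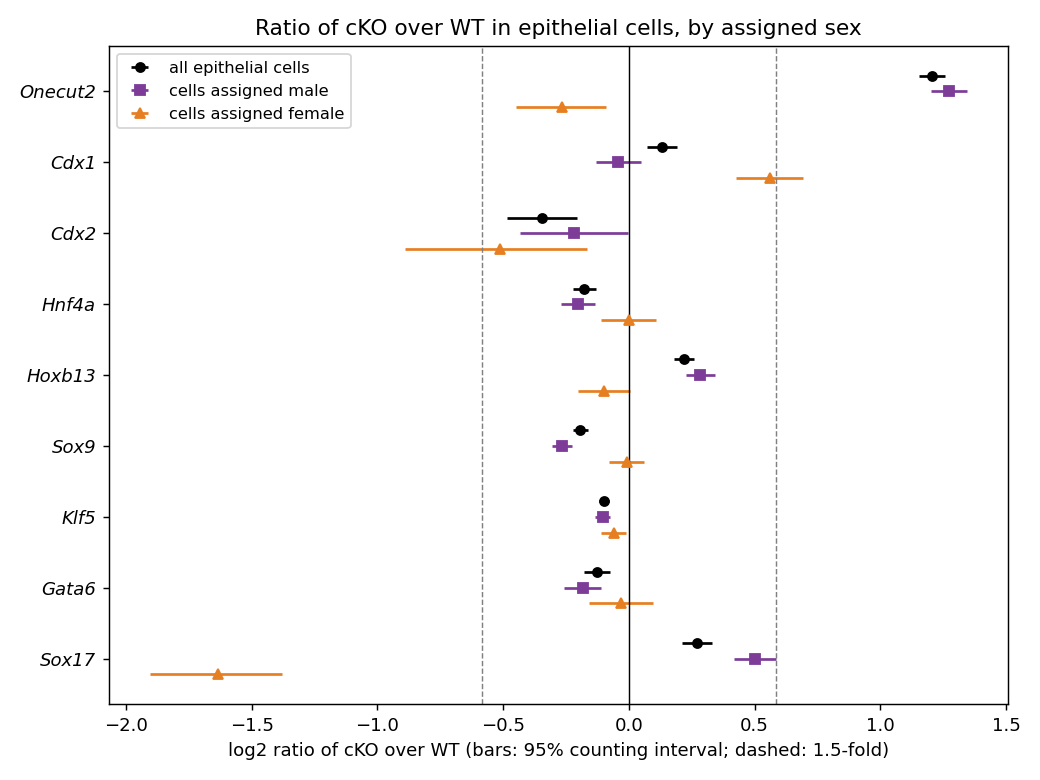
Points give the log2 ratio of cKO over WT for each of the 9 genes in all epithelial cells, in cells assigned male and in cells assigned female, with 95% counting intervals; dashed lines mark 1.5-fold. Onecut2 lies at 1.27 in male and -0.27 in female cells, and Sox17 at 0.50 and -1.63, while the other 7 genes stay within 1.5-fold.

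Cdx2, a central hindgut factor, was a low gene in these tumours and differed more between classes than between libraries. It was 10.0 CPM in cKO and 12.7 CPM in WT over all epithelial cells, a log2 ratio of -0.34 (-0.48 to -0.21), and passed the 10 CPM minimum through WT alone. Stem-like cells had 0.54 CPM in cKO and 2.46 CPM in WT, from 11 and 78 UMIs, and absorptive cells had 31.7 CPM in cKO and 38.4 CPM in WT. Cdx2 was thus under the 10 CPM minimum in stem-like cells of both libraries, and in cKO no higher there than in T-like cells (0.68 CPM, from 2 UMIs). In mitotic-like cells it was 11.4 CPM in cKO and 20.1 CPM in WT, log2 -0.81 (-1.15 to -0.49). Onecut2 and Cdx2 were the 2 of the 9 genes past 1.5-fold in that class, where 3.80% of genes were. In the crypt-base-like, other epithelial, Krt20 surface-like and absorptive classes Onecut2 was the only one of the 9 past it, and likewise among the 8 measured in stem-like cells. The background in either direction was 3.25% in stem-like, 7.46% in crypt-base-like, 3.27% in the other epithelial, 3.52% in Krt20 surface-like and 8.06% in absorptive cells. In goblet and Paneth-like cells Cdx2 was 21.05 CPM in cKO and 14.1 CPM in WT, from 53 and 78 UMIs. That class, with 54 cKO cells, was left out of this tally, which took classes of at least 100 cells in each library. There Onecut2 was under 1.5-fold, at log2 0.55, and Sox17 was past it at -0.71 (-1.47 to -0.05), from 23 and 84 UMIs. The background share was not measured in that class.

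Cdx1, the paralogue expressed toward the crypt, was 63.0 CPM in cKO and 57.5 CPM in WT, a log2 ratio of 0.13 (0.07 to 0.19). Cdx1 in female cells was 83.0 CPM in cKO and 56.3 CPM in WT, with a log2 ratio of 0.56 (0.43 to 0.69). In male cells it was 53.5 CPM in cKO and 55.1 CPM in WT, and the interval of that ratio, -0.13 to 0.05, included no difference. Like Cdx2 it was lowest in stem-like cells, at 19.3 CPM in cKO and 24.0 CPM in WT. Its highest class was crypt-base-like, at 130 CPM in cKO and 107 CPM in WT.

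Hnf4a, the nuclear receptor of the enterocyte program, was 94.4 CPM in cKO and 107 CPM in WT, a log2 ratio of -0.18 (-0.22 to -0.13). Stem-like cells had 45.7 CPM in cKO and 61.6 CPM in WT, and absorptive cells 177 CPM in cKO and 193 CPM in WT. So Hnf4a, like Cdx2, was lowest in stem-like and highest in absorptive cells in both libraries. In female cells it was 112 CPM in cKO and 112 CPM in WT, a log2 ratio of 0.0002 (-0.11 to 0.11), and in male cells 89.5 CPM in cKO and 103 CPM in WT, a ratio of -0.20 (-0.27 to -0.14). Hnf4aos lies on the opposite strand of Hnf4a, as do 1010001N08Rik of Gata6 and Gm37587 of Sox17. Gm25881 overlaps Hnf4a on its own strand. The sources do not state whether counting used strand; without it, reads of a gene and its opposite-strand partner could not be told apart.

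The crypt factor Sox9 ran the other way. It was highest in stem-like cells, at 341 CPM in cKO and 383 CPM in WT, and lowest in absorptive cells, at 97.8 CPM in cKO and 101 CPM in WT. Over all epithelial cells Sox9 was 243 CPM in cKO and 278 CPM in WT, a log2 ratio of -0.19 (-0.22 to -0.16). In male cells the ratio was -0.27 (-0.31 to -0.23) and in female cells -0.01 (-0.08 to 0.06).

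Hoxb13, the most posterior gene of the Hoxb cluster, was 142 CPM in cKO and 122 CPM in WT, a log2 ratio of 0.22 (0.18 to 0.26). Its largest difference was in stem-like cells, at 126 CPM in cKO and 95.5 CPM in WT. In male cells the log2 ratio of Hoxb13 was 0.29 (0.23 to 0.34) and in female cells -0.10 (-0.20 to 0.004). Klf5, a zinc-finger factor of the proliferating crypt, was 499 CPM in cKO and 535 CPM in WT, a log2 ratio of -0.10 (-0.12 to -0.08). Klf5 varied little by class, with its highest class at 1.75 times the lowest in cKO and 1.65 times in WT. Gata6, a zinc-finger factor of endoderm, was 77.5 CPM in cKO and 84.7 CPM in WT, a log2 ratio of -0.13 (-0.18 to -0.08), and its classes lay within 1.61 times of each other in cKO and 1.83 times in WT.

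Likeness of pattern was measured by Pearson's r of log2(CPM + 1) over 12 points, 6 classes in each library, among 5402 genes, as a description. The points share libraries and depth. Closest to Onecut2 were Hypk (0.89), Mptx2 (0.88), Selenof (0.86), Tmem208 (0.85) and Ccng1 (0.84). Over 20 points that also separated the sexes (5 classes), chosen after seeing the data, the closest were Slc7a11 (0.80), Mptx2 (0.78), Dnaja1 (0.77), Arl5a (0.76) and Hspa8 (0.76), so of the first 5 only Mptx2 is in both. Among the other 8 genes, over the 12 points, Sox17 was the most alike to Onecut2 (0.69) and Hnf4a (-0.61) and Cdx2 (-0.53) the least. Closest to Cdx2 were Gipc2, Pmm2 and Serhl (0.97 each), and Hnf4a stood at 0.96, against -0.83 for Sox9 and -0.78 for Sox17.

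Lists of related genes are given by their counts in all epithelial cells, where the median log2 ratio of the 9377 genes was -0.02. Of the 9377, 0.768% were past 1.5-fold higher and 1.16% lower. Of 40 endoderm and hindgut transcription factors, 30 were measured, 9 higher and 21 lower. The list's median was -0.08, and 1 was past 1.5-fold, Onecut2 itself. The 3 most abundant were Sox4 at 600.0 CPM in cKO and 716 CPM in WT, Id1 at 586 CPM in cKO and 652 CPM in WT, and Klf4 at 467 CPM in cKO and 586 CPM in WT. Of 36 Hox genes, 10 were measured, 4 higher and 6 lower, with a median of -0.02 and none past 1.5-fold; Hoxa9 stood at 75.2 CPM in cKO and 69.1 CPM in WT, and Hoxb9 at 39.9 CPM in cKO and 41.1 CPM in WT. By sex, a split made after the pooled values were seen, 3 Hox genes were past 1.5-fold lower in male cells, where 2.4% of all genes were. These were Hoxd13, Hoxd11 and Hoxa13, with log2 ratios of -0.92, -0.94 and -0.77. Hoxd13 was 21.9 CPM in cKO and 41.5 CPM in WT male cells, but 47.5 CPM in cKO and 24.4 CPM in WT female cells. Hoxb9 was 23.9 CPM in cKO and 41.2 CPM in WT female cells. Hoxd13 and Hoxb9 were the Hox genes past 1.5-fold in female cells, where 8.14% of all genes were in either direction. Of 18 secretory lineage factors, 4 were measured, 1 higher and 3 lower, with a median of -0.17. Isl1, an enteroendocrine LIM-homeodomain factor, was 16.6 CPM in cKO and 42.4 CPM in WT, the 1 past 1.5-fold. Isl1 took opposite directions in the sexes: in male cells it was 11.7 CPM in cKO and 60.9 CPM in WT, and in female cells 34.3 CPM in cKO and 19.6 CPM in WT. Foxa1 was 84.2 CPM in cKO and 101 CPM in WT, and Creb3l1 38.2 CPM in cKO and 40.3 CPM in WT.

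Of 36 genes on a mixed list of CDX2 or HNF4A targets and other intestinal identity genes, 22 were measured, 7 higher and 15 lower, with a median log2 ratio of -0.13. Past 1.5-fold were 4 of them, where 1.93% of all genes were. The 1 past 1.5-fold upward was Slc26a3, the chloride and bicarbonate exchanger of the colon surface, at 10.4 CPM in cKO and 6.32 CPM in WT. Slc26a3 passed the 10 CPM minimum through cKO alone, where it was higher. The 3 past 1.5-fold downward were Tff3, a goblet trefoil peptide, at 120 CPM in cKO and 211 CPM in WT, Guca2b, which encodes uroguanylin, at 24.7 CPM in cKO and 44.9 CPM in WT, and Espn, an actin bundler of microvilli, at 23.8 CPM in cKO and 36.4 CPM in WT. Goblet and Paneth-like cells, whose marker list holds Tff3, made up 3.17% of cKO and 5.50% of WT epithelial cells, and their part in the Tff3 difference was not tested. Absorptive cells, whose marker list holds Slc26a3 and Guca2b, made up 7.88% of cKO and 9.20% of WT epithelial cells. Their part in the differences of these 2 genes was not tested either. Lgals4 was 1482 CPM in cKO and 1410 CPM in WT, and Muc2 was 223 CPM in cKO and 258 CPM in WT. In male cells this list had 5 higher and 17 lower, with a median of -0.19, and in female cells 17 higher and 7 lower of 24, with a median of 0.15. The median of all genes was -0.05 in male and 0.02 in female cells. Past 1.5-fold were 6 of the 22 in male cells, where 3.67% of all genes were, and 5 of the 24 in female cells, where 8.14% were.

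Of 24 small intestinal genes, a list that includes Onecut2, 8 were measured, 7 higher and 1 lower, with a median of 0.21 and Onecut2 alone past 1.5-fold. Reg3g was 125 CPM in cKO and 100.3 CPM in WT, and Defa24, a Paneth cell defensin, 519 CPM in cKO and 517 CPM in WT. The sexes differed in direction for both. Defa24 was 696 CPM in cKO and 472 CPM in WT male cells, but 29.9 CPM in cKO and 536 CPM in WT female cells, a log2 ratio of -4.16 (-4.35 to -3.98). It is a Paneth-like marker, at 8938 CPM in 1 epithelial cluster against a mean of 91.6 CPM in the others. Goblet and Paneth-like cells numbered 8 cKO and 36 WT among female cells, and 20 cKO and 40 WT among male cells. The part of these few cells in the Defa24 differences was not tested. Reg3g was 120 CPM in cKO and 134 CPM in WT male cells, and 142 CPM in cKO and 52.5 CPM in WT female cells. The median of the small intestinal list was -0.17 over 8 genes measured in male cells and 0.44 over 9 in female cells, so the sets differ. In female cells Apob and Creb3l3 passed the 10 CPM minimum through cKO alone and Defa17 through WT alone, each where it was higher. Of 19 stomach and foregut genes, 6 were measured, 4 higher and 2 lower, with a median of 0.09. Past 1.5-fold were Gkn3 at 11.1 CPM in cKO and 4.43 CPM in WT and Muc1 at 12.8 CPM in cKO and 7.47 CPM in WT. Both passed the 10 CPM minimum through cKO alone, where they were higher. Of all genes measured, 0.768% were past 1.5-fold higher. Krt7 was 359 CPM in cKO and 372 CPM in WT, Ctse 35.6 CPM in cKO and 32.6 CPM in WT, and Vsig1 19.1 CPM in cKO and 19.4 CPM in WT. Of 13 genes of M cells, the antigen-sampling cells of the gut, 8 were measured, 2 higher and 6 lower, with a median of -0.15. Rnase1, the 1 past 1.5-fold, was 20.9 CPM in cKO and 34.6 CPM in WT, where 1.16% of all genes were past 1.5-fold lower. Pglyrp1 was 1034 CPM in cKO and 1114 CPM in WT. Marcksl1 was 243 CPM in cKO and 227 CPM in WT, and Tnfrsf11b 172 CPM in cKO and 187 CPM in WT.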

How the data were processed

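Tumour cells of 1 cKO and 1 WT library were analysed, grouped by their labels. The deposited values are UMI counts per gene and barcode, not normalized, made by the authors; per the file headers the software was Cell Ranger 7.2.0. Seurat 3.0 and mm10 are named in the submitters' processing notes. Neither use of intronic reads nor the authors' own cell filters are stated in those sources. The cKO matrix held 6723 barcodes and 97364087 UMIs, the WT matrix 9445 and 116066712; 22 barcodes occurred in both, 14 among kept cells. Barcodes with under 500 genes or over 25% mitochondrial UMIs were left out, as were the highest Scrublet scores (scanpy 1.11.5, 0.8% of barcodes per 1000; 274 cKO and 658 WT removed). This left 4388 cKO and 7245 WT cells.

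Cells were gated by UMIs of marker lists per 10000: epithelial at 40 or more of 10 pan-epithelial genes, under 10 for each of 10 other classes, and at least 2000 UMIs. Cuts were set after the data were seen. Epithelial barcodes under 2000 UMIs (273 cKO, 966 WT) and unassigned cells (808 cKO, 2390 WT) were not used. Female cells had at least 2 Xist UMIs and no Y-linked UMI; male cells at least 2 of 4 Y-linked genes' UMIs and no Xist. Clusters (Leiden resolution 1, leidenalg 0.10.2, 2000 variable genes without the 9 genes) served as an alternative.

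Counts were summed per class and library and expressed per 1000000 UMIs (CPM). For the log2 ratio of cKO over WT, 0.5 counts were added to each sum, with exact conditional binomial intervals. Levels have Poisson intervals and shares Clopper-Pearson intervals. The minimum for a gene to be measured was 10 CPM in cKO or in WT. The ratio, its interval and the fold call were checked on simulated data. Gene positions are from GENCODE M21 (GRCm38), and promoters from RefSeq.

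The 9 genes and the lists were chosen with earlier results of these data known. Named genes were the 9, Mtch2, the 5 most alike to Onecut2 and the 3 most alike to Cdx2, and in each list those past 1.5-fold and the 3 most abundant. Alternatives covered the choice of cells, weighting, scaling, sex, depth and thinning.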

Additional observations from a re-analysis of the deposited data

Results flagged for a closer look

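Onecut2 took opposite directions in the cells of the sexes. Its log2 ratio of cKO over WT was 1.27 in epithelial cells assigned male and -0.27 in those assigned female, with intervals on either side of 0. The difference between the sexes was not tested, since there is 1 library per genotype.

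Sox17 did the same, with a log2 ratio of 0.50 in male and -1.63 in female cells, also not tested.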

How the results depend on the processing

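The log2 ratio of Onecut2 over all epithelial cells, 1.21, turned to -0.27 in cells assigned female and to -0.25 under the stricter assignment. Outside its counting interval but in the same direction it was 1.28 when each cell's CPM was averaged, 1.27 in male cells under either assignment, 0.91 in cells of no assigned sex and 1.39 in cells under 20000 UMIs. The other 10 alternatives gave 1.18 to 1.25. One gene of the 9 was past 1.5-fold in 15 of 16 alternatives, but in cells assigned female it was Sox17, not Onecut2. Under the stricter assignment of female cells 2 were, Sox17 at -2.08 and Cdx1 at 0.72. The share of all genes past 1.5-fold was not measured for those cells. Under the first assignment it was 8.14% in female cells. In all epithelial cells the share of all genes past 1.5-fold was 1.93%, and 1.10% at 50 CPM or more. The difference between cKO and WT in the thinned share of cells with Onecut2 was 11.2 percentage points at 3000 UMIs, 15.7 at 5000 and 19.6 without thinning. Among the other 8 genes, the ratios of Cdx2, Sox9 and Gata6 kept their sign in all 16 alternatives. Cdx1 (2 of 16), Hnf4a (2), Hoxb13 (2), Klf5 (1) and Sox17 (4) changed sign in some. Assignments by the stricter rule, unassigned cells, the split at 20000 UMIs and shallow barcodes were chosen after seeing the data. No paired analysis was possible because each genotype has 1 library. That also leaves no measure of variation between animals, and Cdx2 in stem-like cells rests on 11 cKO and 78 WT UMIs.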
